A study of Mus musculus with 101 samples.

Results

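The Dlk1-Meg3 intergenic region and the Meg3 promoter are the germline and the somatic methylation mark of an imprinted gene cluster on mouse chromosome 12. They were taken as the target regions of the authors' category imprinting that lie in the Dlk1-Meg3 window, which gave 2 of 868 regions, and the 84 of 7917 measured CpGs that lie in the same window were read with them. DNA methylation had been measured by enzymatic methyl sequencing (EM-seq), in which enzymes rather than bisulfite convert unmethylated cytosines, after hybrid capture of target regions. All 85 columns were embryonic stem cell lines of Diversity Outbred mice, an outbred mouse population bred from several inbred founder strains, and all were grown in serum with LIF plus 2i, a pair of kinase inhibitors that holds the cells in a naive state. The prefix of the line name was the grouping used here, with 28 B1, 18 B2, 20 B3A and 19 B3B lines; the labels used here do not say what a prefix stands for, the passage of a line or whether it is a clone.

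On the paternal chromosome of somatic cells the cluster is methylated at the intergenic region, a mark laid down in the male germline, and after implantation also at the promoter of Meg3, where methylation depends on the intergenic mark. The unmethylated maternal copy expresses the noncoding RNAs Meg3, Rian and Mirg, and the paternal copy expresses Dlk1, a transmembrane protein related to Notch ligands, together with Rtl1 and Dio3. The region is known for unstable methylation in cultured mouse pluripotent cells, and 2i is known to lower methylation across the genome.

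In the coordinates of mm10, the intergenic region spanned chr12:109527383-109530388, a length of 3006 bases, and held 44 measured CpGs. It began 64.05 kb after the end of Dlk1 and ended 10.6 kb before the start of Meg3, and it overlapped the gene Gm34081 in the RefSeq annotation. The Meg3 promoter region spanned chr12:109540510-109543677, a length of 3168 bases, and held 31 measured CpGs. It began 486 bases before the start of Meg3, which runs over chr12:109540996-109571729, and so covered the start and the first part of the gene. The other 9 CpGs of the window lay outside both regions, 4 just upstream of the promoter region and 5 within Meg3. No target region lay within 5 kb of Dlk1, so methylation at Dlk1 itself is not described here.

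The core of the Meg3 promoter is shown because the somatic mark is read across it. The sequence is that of RefSeq in GRCm38.p6, plus strand, chr12:109540746-109541045, written 5′ to 3′, and the capitals mark CpGs with a methylation value.

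Meg3 promoter: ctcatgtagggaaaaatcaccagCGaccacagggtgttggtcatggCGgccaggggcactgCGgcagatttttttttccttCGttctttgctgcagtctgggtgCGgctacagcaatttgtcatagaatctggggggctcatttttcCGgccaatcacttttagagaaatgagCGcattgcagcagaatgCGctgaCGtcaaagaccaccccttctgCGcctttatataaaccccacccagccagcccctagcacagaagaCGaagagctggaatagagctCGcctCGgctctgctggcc

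All 13 CpGs of this stretch were measured, 10 before and 3 after the start of Meg3. Averaged over these CpGs, the lines ran between 0.913% and 51.1%, with a median of 24.5%. The means of the single CpGs lay between 17.6% and 30.9%. The stretch held the cAMP response element TGACGTCA once, starting 57 bases before the gene's start; 1.79% of 32851 RefSeq promoter windows of this length held it on either strand. The CpG inside that element averaged 18.4% ± 12.97 (SD, n = 85). The hexamer TGCCGC, known as the sequence bound by the imprint-maintaining factor ZFP57 when methylated, occurred once on the minus strand, and 11.6% of the windows held it on either strand. The 2 motifs did not overlap. The CpG inside the hexamer had the highest mean of the 31 CpGs of the promoter region, 30.9% ± 13.97 (SD, n = 85). The CpG at -359 bases, outside the hexamer, was close to it, at 30.6% ± 11.9 (SD, n = 85). The sequence of the intergenic region was not searched for motifs.

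The germline mark carried more methylation than the somatic mark in most lines. The intergenic region ran between 2.06% and 51.3% with a median of 30.6%, and the Meg3 promoter between 1.46% and 45.05% with a median of 21.8% (n = 85 each). The ranges overlapped widely between lines, and the marks were compared within each line. Their means were 28.03% ± 11.3 (SD) at the intergenic region and 20.7% ± 10.9 (SD) at the Meg3 promoter. The intergenic region exceeded the Meg3 promoter in 80 of 85 lines, on average by 7.36 points ± 5.50 (SD over lines). The mean of these within-line differences passed a two-sided sign-flip permutation test (p = 1e-05, the smallest it can give, and adjusted p = 1.5e-05 over 3 paired differences).

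**Figure D1:**
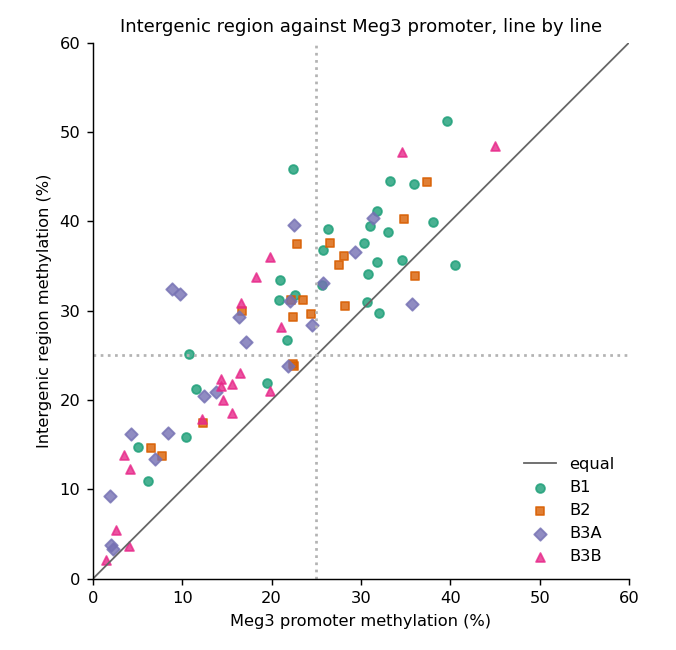
Methylation of the intergenic region (%, vertical axis) against that of the Meg3 promoter (%, horizontal axis), 1 point per line, with colour and shape for the prefix. The solid line marks equal values and the dotted lines 25%; 80 of 85 lines lie above the solid line and no line lies in the lower right quadrant.

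The same direction held within each prefix. In B1 the intergenic region was higher by 7.24 points ± 5.75 (SD, n = 28), in 26 of 28 lines. In B2 the difference was 6.58 points ± 4.16 (SD, n = 18), with the intergenic region higher in 17 of 18 lines. The 20 B3A lines differed by 8.51 points ± 6.78 (SD), 19 of them in this direction, and the 19 B3B lines by 7.09 points ± 4.95 (SD), 18 of them in this direction. Each passed the sign-flip permutation test with adjustment over the 4 prefixes (adjusted p between 2e-05 and 5e-05). The B3A result comes mostly from columns whose names end in N, which 16 of 20 B3A columns do. Its 4 columns without that ending gave 7.48 points (permutation adjusted p = 0.126), too few for the test to pass. The size of the difference did not change with prefix past the threshold (permutation of F, p = 0.739). Of the 6 pairs of prefixes, B2 and B3A lay farthest apart, by -1.92 points ± 1.81 (SE, adjusted permutation p = 0.889).

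Single lines departed from the common difference in both directions. The widest gaps were in B3Ad20N, with 32.4% at the intergenic region and 8.81% at the Meg3 promoter, in B1dC13N, with 45.9% and 22.4% at those marks, and in B3Ad26N, with 31.8% and 9.77%. In that order these lines lacked a value at 120, 68 and 99 target regions, against a median of 58 over all lines. The Meg3 promoter was the higher mark in 5 lines. B1dA5 had 35.1% at the intergenic region and 40.5% at the Meg3 promoter, and B3Ad37N had 30.8% and 35.7%. B2d24 had 33.9% and 36.1% at the same marks, and B1dB45 had 29.8% and 32.1%. In the fifth line, B3Bd35, both marks were close to 0, at 3.67% and 4.06%. These exceptions depended on how the marks were averaged. With averages taken from the CpG values, the Meg3 promoter stayed higher in B1dA5 (33.4% and 38.9%) and B3Ad37N (26.9% and 33.6%). It was then lower in B2d24 (32.9% and 29.7%), B1dB45 (29.8% and 26.6%) and B3Bd35 (3.87% and 3.76%). In B2d22 (27.03% and 27.8%) and B2d17 (25.4% and 25.5%) it became the higher mark.

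Counted against 25%, the intermediate class used here, the lines fell into 3 of 4 possible combinations. Both marks were under 25% in 32 lines and both at or over it in 30. In 23 lines the intergenic region was at or over 25% while the Meg3 promoter was under it, and the reverse combination occurred in 0 lines (exact two-sided sign test, p = 2.38e-07). No line exceeded 75% at either mark; the highest values were 51.3% in B1dB19 at the intergenic region and 45.05% in B3Bd8 at the Meg3 promoter.

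The 23 lines with the germline mark at or over 25% and the somatic mark under it came from every prefix. They were 6 of 28 B1 lines (B1dC13N, B1dB25, B1dB37, B1dB37N, B1dA16 and B1dB27) and 6 of 18 B2 lines (B2d7, B2d27, B2d2A, B2d5, B2d2 and B2d1). B3A had 7 of 20 (B3Ad20N, B3Ad26N, B3Ad35N, B3Ad15N, B3Ad3, B3Ad33N and B3Ad14N) and B3B had 4 of 19 (B3Bd38N, B3Bd39, B3Bd36 and B3Bd17). In these lines the intergenic region lay between 25.2% and 45.9% and the Meg3 promoter between 8.81% and 24.5%. The gap between the marks ran from 3.86 points in B3Ad14N to 23.6 points in B3Ad20N, so part of the group lies close to the limit. With a limit of 20% in place of 25%, 19 lines had this combination and 0 the reverse. With 30%, 24 lines had it and 1 the reverse.

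Line by line the marks moved together. Over 85 lines the coefficient was 0.878 by Pearson and 0.865 by Spearman rank, with a permutation p of 1e-05 for each, the smallest it can give (adjusted p = 3.75e-05 over 30 correlations). With the 2 lines most distant from the intergenic region's median left out, r was 0.868. Taken by prefix, Pearson r was 0.829 (B1, n = 28), 0.882 (B2, n = 18), 0.803 (B3A, n = 20) and 0.929 (B3B, n = 19), with adjusted permutation p between 3.75e-05 and 0.0001. The rho values for B1, B2, B3A and B3B were 0.740, 0.792, 0.805 and 0.912 (adjusted permutation p at most 0.0007). Leaving out the 2 farthest lines of each prefix left r at 0.744 (B1), 0.782 (B2), 0.750 (B3A) and 0.891 (B3B).

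Much of this joint movement was shared with the rest of the panel. The mean of the 782 other kept regions, used here as the level of a line, ran between 3.01% and 43.8%, with a median of 16.8%. It correlated with the intergenic region at r = 0.807 and with the Meg3 promoter at r = 0.910 (n = 85; given as a description, since each pair is read in the same library). By linear regression the intergenic region gained 0.908 ± 0.073 (SE) points for each point of that level, with an intercept of 10.8% ± 1.56 (SE). The Meg3 promoter gained 0.984 ± 0.049 (SE) points, with an intercept of 1.99% ± 1.05 (SE). The residual SD around these lines was 6.67 points at the intergenic region and 4.51 points at the Meg3 promoter, so the somatic mark followed the level of the line more closely.

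After the level of the line was regressed out of both marks, they were still correlated. The residuals of the 85 lines had r = 0.585 and rho = 0.577 (permutation p = 1e-05, adjusted p = 3.75e-05 for each). Without the 2 lines whose intergenic residual lay farthest from the median residual, r was 0.568. For B1, B2, B3A and B3B lines alone, r of the residuals was 0.623, 0.638, 0.508 and 0.501, with adjusted permutation p of 0.000923, 0.00838, 0.0377 and 0.0454 in that order of prefixes. By Spearman rank the coefficient was 0.567 (B1), 0.575 (B2) and 0.513 (B3A; adjusted permutation p = 0.00418, 0.0272 and 0.0377), and 0.442 in B3B, where it missed the threshold (adjusted permutation p = 0.088). Dropping the most distant 2 lines per prefix gave an r of the residuals of 0.427 (B1), 0.480 (B2), 0.402 (B3A) and 0.418 (B3B).

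**Figure D2:**
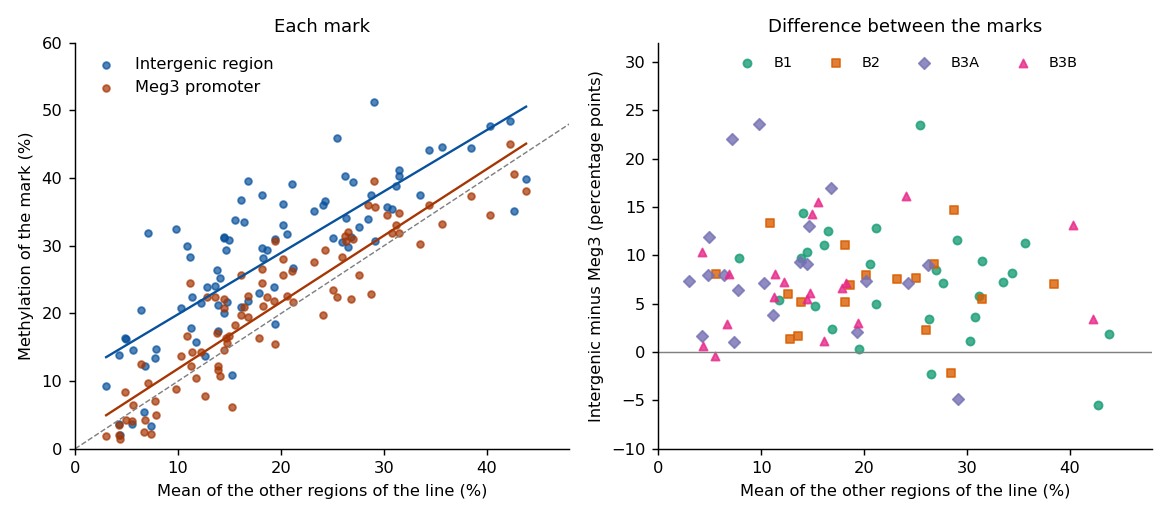
Left, methylation of each mark (%, vertical axis) against the mean of the other regions of the line (%, horizontal axis), with linear fits for the intergenic region (blue) and the Meg3 promoter (brown) and a dashed line of equal values. Right, the difference between the marks (percentage points) against the same level, coloured by prefix; the intergenic fit has the higher intercept, 10.8% against 1.99%, and 80 of 85 differences are above 0.

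At the low end of the level, B3Ad29N (3.01%) had 9.23% at the intergenic region and 1.88% at the Meg3 promoter, and B3Bd27N (4.26%) had 13.9% and 3.52%. The next 2 lines had little methylation at either mark, with 3.73% and 2.08% in B3Ad36 (4.30%) and 2.06% and 1.46% in B3Bd20N (4.35%). At the high end, B1dC17 (43.8%) had 39.9% at the intergenic region and 38.03% at the Meg3 promoter, B1dA5 (42.7%) had 35.1% and 40.5%, and B3Bd8 (42.2%) had 48.5% and 45.05%. The intergenic region was the higher mark in 9 of the 10 lines with the lowest level and in 9 of the 10 with the highest, beside 80 of all 85. Over all lines the intergenic region was above the level of its line in 76 of 85 and the Meg3 promoter in 53 of 85.

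On the percent scale the difference between the marks had no relation with the level past the threshold. Over 85 lines r was -0.140 and rho -0.0759 (adjusted permutation p = 0.266 and 0.544). Without the 2 lines farthest from the median level, r was -0.0481. Taken by prefix, r was -0.327 (B1), -0.0237 (B2), -0.245 (B3A) and 0.266 (B3B; adjusted permutation p between 0.125 and 0.934). On the log2 odds scale the relation was negative over all lines, with r = -0.524 (adjusted permutation p = 3e-05), so the statement depends on the scale.

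**Figure D3:**
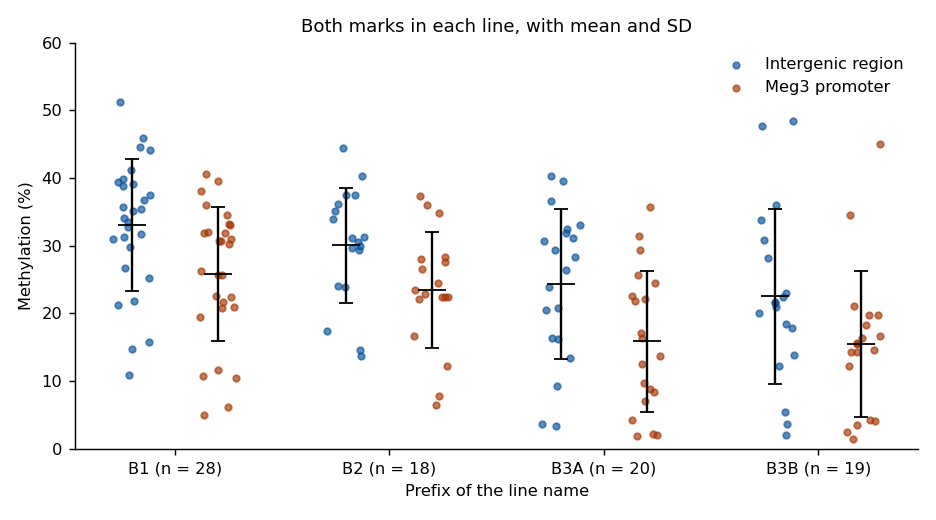
Methylation (%, vertical axis) of the intergenic region (blue, left of each pair) and the Meg3 promoter (brown, right) in each line, by prefix; bars give the mean and SD. B1 and B2 have the higher means at both marks, and the ranges of all 4 prefixes overlap.

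Both marks had higher means in B1 and B2 than in B3A and B3B, and B1 passed the test against B3A and against B3B. The intergenic region ran between 10.97% and 51.3% in B1 (median 34.6%) and between 13.8% and 44.4% in B2 (median 30.9%). It ran between 3.32% and 40.4% in B3A (median 27.4%) and between 2.06% and 48.5% in B3B (median 21.6%). The prefixes overlapped over most of their range, and the lines under 10% were all B3A or B3B lines. The mean ± SD was 33.1% ± 9.69 for the 28 B1 lines, 30.04% ± 8.54 for the 18 B2 lines, 24.4% ± 11.1 for the 20 B3A lines and 22.6% ± 12.9 for the 19 B3B lines.

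The Meg3 promoter had the same order of means. It ran between 4.997% and 40.5% in B1 (median 28.3%), between 6.53% and 37.4% in B2 (median 23.1%), between 1.88% and 35.7% in B3A (median 15.04%) and between 1.46% and 45.05% in B3B (median 15.5%). The mean ± SD was 25.8% ± 9.93 (B1), 23.5% ± 8.62 (B2), 15.9% ± 10.4 (B3A) and 15.5% ± 10.8 (B3B), over the same lines.

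Both marks passed limma's moderated F test between prefixes, with an adjusted p over 787 regions of 0.00556 at the intergenic region and 0.00137 at the Meg3 promoter. Of all regions tested 81.6% passed, so this places the marks with most of the panel. B1 exceeded B3A by 8.69 points ± 3.08 (SE) at the intergenic region (adjusted limma p = 0.0124) and by 9.96 points ± 2.99 (SE) at the Meg3 promoter (adjusted p = 0.00194), a contrast that 85.3% of regions passed in this direction. The B1 minus B3A call depended on which columns were used. At the intergenic region it was 0.74 on the log2 odds scale over all columns, 0.38 without the lines that have 2 titles (adjusted limma p = 0.210) and 0.63 with columns that match exactly 1 title (0.290). At the Meg3 promoter it was 1.07, 0.72 (0.0489) and 1.16 (0.110) in the same order. B1 exceeded B3B by 10.5 points ± 3.49 (SE) at the intergenic region (adjusted limma p = 0.00578) and by 10.4 points ± 3.11 (SE) at the Meg3 promoter (adjusted p = 0.00551), against 67.1% of regions. B2 exceeded B3A at the Meg3 promoter by 7.59 points ± 3.09 (SE, adjusted limma p = 0.0228, against 72.4% of regions), or 0.92 on the log2 odds scale. It was 0.50 without the lines that have 2 titles (adjusted limma p = 0.275) and 1.04 with columns that match exactly 1 title (0.233). At the intergenic region the same contrast was 5.67 points ± 3.19 (SE) and missed the threshold (adjusted limma p = 0.102). The contrasts of B1 with B2, of B2 with B3B and of B3A with B3B passed at neither mark (adjusted limma p between 0.154 and 0.967); 0%, 0.254% and 0% of regions passed them in that direction. Once the library mean entered the fit as a covariate, neither mark passed the test between prefixes (adjusted limma p = 0.398 at the intergenic region and 0.393 at the Meg3 promoter), and 3.43% of regions did. The sign of B1 minus B3A turned under the covariate, to -0.22 on the log2 odds scale at the intergenic region and -0.21 at the Meg3 promoter, and B2 minus B3A at the Meg3 promoter turned to -0.052. The covariate was the mean log2 odds over the kept regions outside the window. The mean of those regions in percent moved with the prefix, with a mean ± SD of 24.4% ± 9.26 (B1), 20.7% ± 8.44 (B2), 12.8% ± 7.74 (B3A) and 15.8% ± 10.5 (B3B). Prefix also moved with the column names, since 6 of 28 B1, 0 of 18 B2, 16 of 20 B3A and 9 of 19 B3B columns end in N. Among columns without a final N both marks still passed the F test (adjusted limma p = 0.017 at the intergenic region and 0.01004 at the Meg3 promoter), and B1 minus B3A was 1.35 and 1.80 on the log2 odds scale, beside 0.74 and 1.07 over all columns.

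Single CpGs gave the shape of the 2 marks. Within the intergenic region the CpGs fell into 3 clusters. The cluster farthest from Meg3 had 9 CpGs, at -13408 to -13315 bases from its start, and the highest level, 33.5% ± 13.1 (SD, n = 85). The central cluster had 32 CpGs, at -12861 to -12525 bases, and 24.2% ± 11.2. The third had 3 CpGs, at -11464 to -11238 bases, and 23.6% ± 11.7 (SD, n = 85 each). The first cluster was above the central one in 75 of 85 lines, by 9.33 points ± 7.82 (SD of the difference). These clusters were drawn after their positions and values were seen, so the values are a description.

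The Meg3 promoter region had a higher and a lower section. The 26 CpGs around the start, at -359 to 303 bases from it, averaged 20.5% ± 10.9 (SD, n = 85). The 5 CpGs about 2 kb into the gene averaged 10.1% ± 9.54, lower in 79 of 85 lines. The 5 CpGs farther into Meg3, outside the promoter region, averaged 23.2% ± 12.2, and the 4 CpGs just upstream of the region 26.7% ± 14.1 (SD, n = 85 each). The central intergenic cluster was above the CpGs around the Meg3 start in 64 of 85 lines, by 3.73 points ± 6.64 (SD). For the far intergenic cluster this held in 81 of 85 lines, by 13.1 points ± 7.77 (SD). The size of the difference between the marks thus varied with the CpGs compared.

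**Figure D4:**
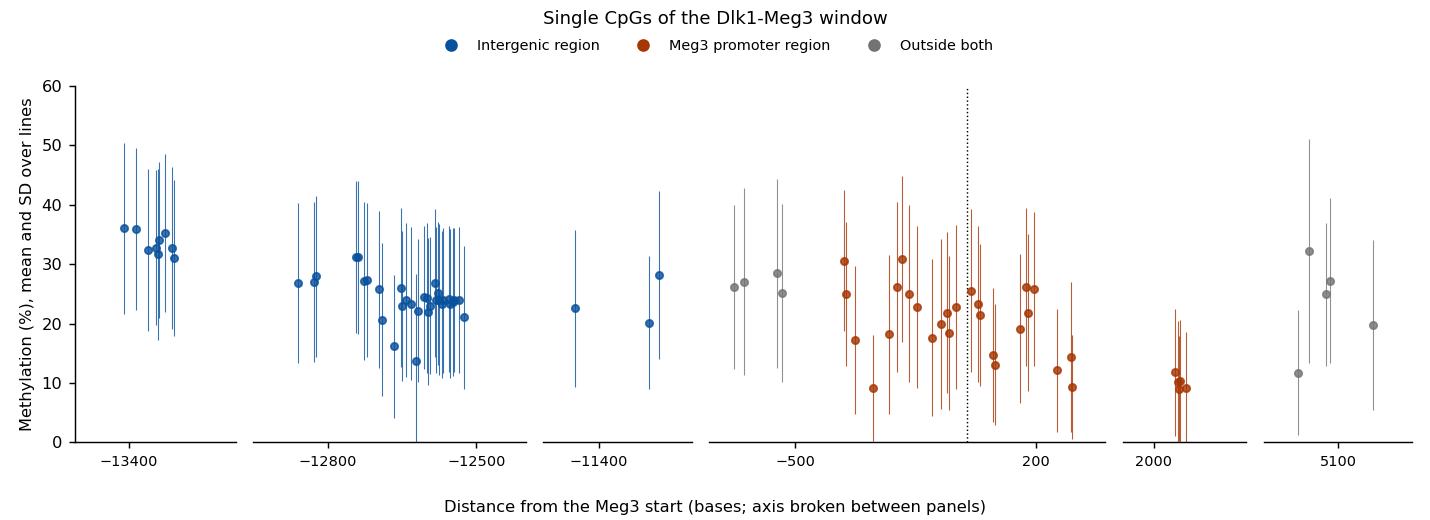
Mean methylation of each of the 84 CpGs over 85 lines (%, vertical axis; bars are SD) against distance from the Meg3 start (bases, horizontal axis broken between panels; the dotted line marks the start). The highest intergenic means lie in the cluster farthest from Meg3. In the Meg3 promoter region the CpGs about 2 kb into the gene have low means, 9.03% to 11.8%. Near the start, the CpGs at -273 and 303 bases are as low, at 9.08% and 9.25%.

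At the extremes, the CpG at 109527588 had the highest intergenic mean, 35.99% ± 14.4 (SD, n = 85), with a median of 39.3% and a range between 4% and 70.9%. The intergenic CpG with the smallest spread, at 109529732, averaged 20.1% ± 11.2 and ranged between 0% and 47.2%. In the Meg3 promoter region the CpG at 109540807 had the highest mean, 30.9%, and that at 109543037 the lowest, 9.03% ± 8.81, with 22 of 85 lines at 0. The largest spread in that region was at 109540827, with 25.02% ± 14.9, and the smallest at 109541299, with 9.25% ± 8.74. Outside both regions, within Meg3, the CpG at 109546018 had the highest mean and the largest spread, 32.1% ± 18.8, and reached 86.6%. The CpG at 109545988, 30 bases away, had the lowest of both there, 11.7% ± 10.5.

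The intergenic CpG at 109528375, within the central cluster, stood apart from its neighbours. It had the lowest mean of the 44 intergenic CpGs, 13.7%, and the largest SD, 14.6 points (n = 85), with a median of 8.33% and a range between 0% and 57.5%. It was at 0 in 26 of 85 lines, while no other intergenic CpG was at 0 in more than 5. In those lines the mean of the other intergenic CpGs ran between 1.84% and 42.1%, so a line at 0 here could carry methylation at the rest of the region. In 30 lines this CpG was under 5% while the other intergenic CpGs averaged over 15%, a pattern that at most 4 lines showed at any other intergenic CpG. Its r with the mean of the other intergenic CpGs was 0.497, against 0.749 or more for each of the others. The CpG 10 bases before it averaged 23.4% ± 12.9 and was at 0 in 2 lines, and the CpG 3 bases after it averaged 22.2% ± 12.1 and was at 0 in 1. Its zeros were found in every prefix: in 11 B1 lines, and in 5 lines each of B2, B3A and B3B. This CpG did not differ between prefixes past the threshold (adjusted limma p = 0.633). The lines are outbred, and whether they differ in sequence at this CpG was not tested.

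**Figure D5:**
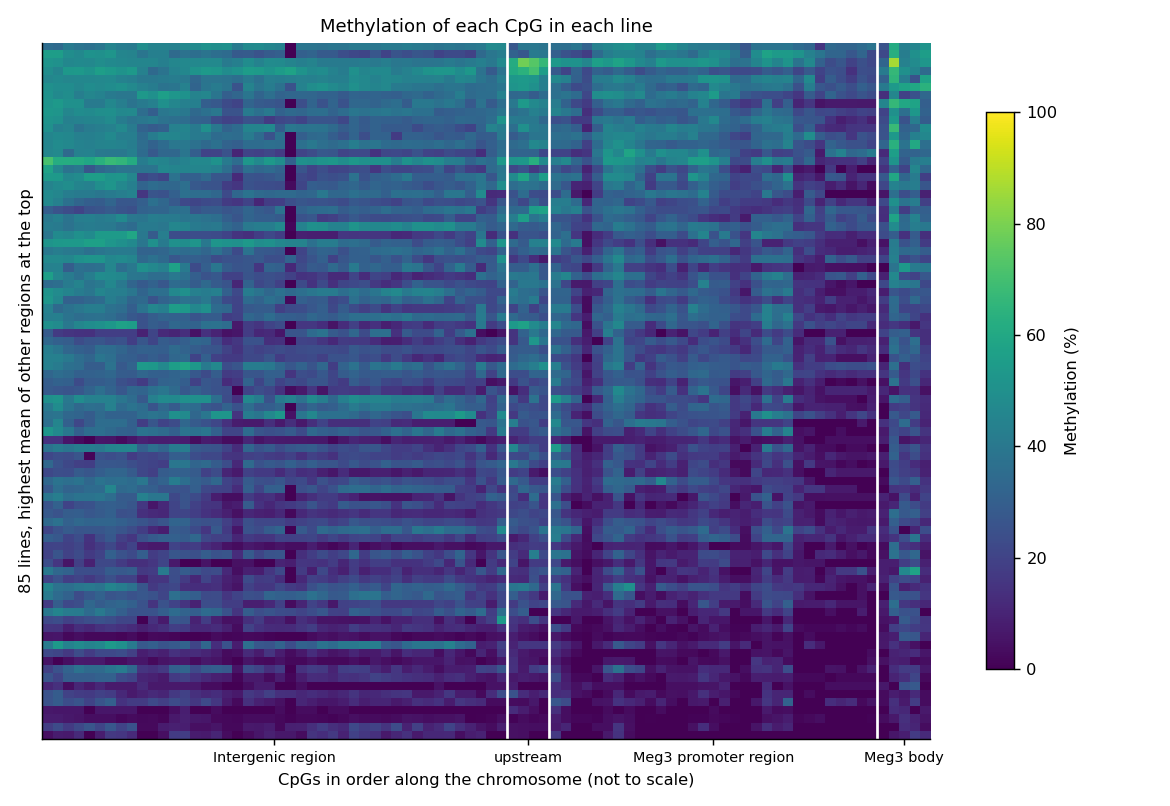
Methylation (%, colour) of each of the 84 CpGs (columns, in order along the chromosome, white lines between the regions) in each of the 85 lines (rows, highest mean of the other regions at the top). The intergenic CpG at 0 in 26 lines shows as a column of dark cells across lines that are methylated on both sides of it, and the last CpGs of the Meg3 promoter region are dark in most lines.

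CpGs of the same mark varied together more than CpGs of different marks. The median r over lines was 0.723 for 946 pairs within the intergenic region, 0.702 for 465 pairs within the Meg3 promoter region and 0.633 for 1364 pairs between them. After regression on the level of the line these medians were 0.465, 0.277 and 0.223 in the same order. CpGs in a cluster can be read from the same fragments, and all values of a line share a library, so these are descriptions without a test. Within a line the SD among CpGs had a median of 7.60 points at the intergenic region and 9.22 points at the Meg3 promoter.

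Read singly, 47 of 84 CpGs of the window differed between prefixes by limma's F test adjusted over all 7917 CpGs, against 45.2% of all CpGs. By mark, 17 of 44 CpGs of the intergenic region passed, 25 of 31 of the Meg3 promoter region and 5 of 9 outside both. B1 had the highest mean of the 4 prefixes at 75 of the 84 CpGs and B2 at 8. The same count was not made over all 7917 CpGs. B1 also had the highest mean over the other regions, 24.4% against 20.7% (B2), 12.8% (B3A) and 15.8% (B3B). Under the same covariate 0 of 84 passed, with a smallest adjusted limma p of 0.112 in the window, and 0.177% of all CpGs did.

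Set against the other paternally methylated germline regions, the intergenic region was between H19 and Rasgrf1 in level. H19 is a noncoding RNA gene whose control region governs the neighbouring growth factor gene Igf2. The intergenic region had 28.03% ± 11.3 (SD) and the H19 region 31.2% ± 15.5 (SD), a difference of -3.13 points ± 8.13 (SD over lines, n = 85), with the intergenic region higher in 33 lines (sign-flip permutation p and adjusted p = 0.00051). The order of the means was not the same in every prefix. The intergenic region had 33.1% and H19 40.8% in B1, and 30.04% and 35.9% in B2. In B3A the values were 24.4% and 21.3%, and in B3B 22.6% and 22.8%, in the same order of regions. The difference between prefixes in this comparison was not tested. Rasgrf1 encodes a Ras-activating exchange factor and is expressed from the paternal copy. In the 82 lines with a value there, the intergenic region averaged 28.2% ± 11.4 (SD) and the Rasgrf1 regions 20.5% ± 11.96 (SD). The Rasgrf1 value of a line was the mean over those of the 2 regions that had a value in it. The CpG table holds 0 CpGs there, so this value rests on the deposited averages alone. The intergenic region was higher in 67 of 82 lines, on average by 7.72 points ± 8.35 (SD; sign-flip permutation p = 1e-05, adjusted p = 1.5e-05). For each point of the level of the line, the intergenic region gained 0.908 ± 0.073 (SE) points, H19 1.37 ± 0.078 (SE) and Rasgrf1 0.977 ± 0.075 (SE).

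Among the 23 regions of the category imprinting, the 2 marks had the smallest spread between lines. The SD was 11.3 points at the intergenic region and 10.9 points at the Meg3 promoter, against a median of 13.6 over the 23, and the highest was 19.2. By mean the intergenic region ranked 3rd from the highest and the Meg3 promoter 16th. By correlation with the level of the line the Meg3 promoter ranked highest of the 23, at r = 0.910, and the intergenic region ranked 9th from the lowest, at 0.807. All 21 other imprinting regions passed the F test between prefixes, beside 81.6% of all regions tested, and 1 of 21 passed under the covariate, beside 3.43%.

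Over all 782 kept regions outside the window, none had a higher r with the intergenic region than the Meg3 promoter did (0.878; the median was 0.679). The nearest were the H19 region, at 0.862, a region 2325 bases from Ifna13, an interferon alpha gene, at 0.861, and a region of Gnas, an imprinted gene for a stimulatory G protein subunit, at 0.860 (n = 85 each). The Meg3 promoter in turn had 123 of the 782 regions ahead of the intergenic region. The highest were in Pde11a, a phosphodiesterase gene, at 0.932, near Ifna13 at 0.924 and in Unc5a, a netrin receptor gene, at 0.919. After regression of all regions on the level of the line, each mark was the other's nearest, at 0.585, ahead of all 782 regions. For the intergenic region H19 followed at 0.536, then Gnas at 0.515 and the region near Ifna13 at 0.508. For the Meg3 promoter H19 followed at 0.551, then a region over Gnas and Gnasas1 at 0.551 and the Gnas region above at 0.525. These correlations are over lines that share libraries and are given without a test.

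Target regions of other categories in the window gave overlapping readings of the Meg3 end. A region that spans the Meg3 start, at -942 to 817 bases from it, averaged 23.5% ± 11.5, and another, 1345 to 2043 bases into the gene, 17.4% ± 10.6. A region of the category Cancer, 4744 to 5243 bases into Meg3, averaged 27.8% ± 15.1 and ran between 4.93% and 64.5% (SD, n = 85 each). Their r with the Meg3 promoter was 0.987, 0.939 and 0.870, and with the intergenic region 0.896, 0.798 and 0.759 in the same order. The first 2 share CpGs with the promoter region and so are no separate measurement. The authors' category of these 2 regions is named for a comparison between mouse strains. The lines are outbred, and whether founder strain adds to the spread between lines at the Meg3 promoter was not tested.

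Of 21 listed genes of the cluster and of imprint maintenance, 4 had a target region within 5 kb. These were Meg3, Dppa3, a factor that protects methylation in the early embryo, Dnmt3l, a cofactor of de novo methylation in the germline, and Tet3, a dioxygenase that oxidises methylcytosine. Dlk1, Rtl1, Rian, Mirg and Dio3 of the cluster had none. The regions of Dnmt3l and Tet3 had r of 0.718 and 0.854 with the intergenic region and 0.833 and 0.916 with the Meg3 promoter (n = 85). The median r over the 782 kept regions outside the window was 0.679 with the intergenic region and 0.783 with the Meg3 promoter. Dppa3 averaged 6.26% ± 6.47 over the 64 lines with a value and was not among the 787 regions tested. Of the 7 regions, 6 were tested, of which 4 are regions of Meg3, the promoter region included. All 6 passed the F test between prefixes, beside 81.6% of all regions, and 0 of 6 passed under the covariate, beside 3.43%.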

How the data were processed

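Average methylation per target region and methylation fractions (beta values) per CpG were deposited by the authors in 2 tables, both from 0 to 1 and printed here as percent, with differences in percentage points. The submitters' processing notes name mm10, Bismark, Bowtie2 and Trim Galore 0.6.4, with roles and settings not given in the sources used here. A coverage filter of 10 stands in the names of both deposited tables. No read counts come with the fractions, so depth is unknown, no counting interval was computed and sampling noise adds to each spread. Lines lacked 25 to 173 of the 868 regions; neither mark lacked a value in any line, and no column of values was left out.

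Of 85 columns, 44 matched 1 of 101 titles; 24 end in an N that the title lacks, 16 belong to lines with 2 titles and 1 matched none, and these were used by prefix only. Each column was treated as a line (B1dB37 and B1dB37N differ in the final N), and nothing states that columns are separate cultures, so each p-value refers to the spread over columns.

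The 787 regions that had a value in 80% of lines or more, and all 7917 CpGs, were tested between prefixes on the log2 odds of methylation, log2((fraction + 0.01)/(1 - fraction + 0.01)), by the moderated F test of limma 3.58.1 under R 4.3.3. Adjustment was by Benjamini-Hochberg over all features, at a threshold of 0.05. The test was checked on simulated data. Marks were paired within lines by sign-flip permutation, and correlations and the F of the difference by permutation, with 100000 resamples. Python 3.11.15, NumPy 2.4.6, pandas 2.3.3, SciPy 1.17.1 and matplotlib 3.10.9 were used. Gene positions and the promoter sequence came from RefSeq tables of GRCm38.p6, which shares its coordinates with mm10. Alternatives covered offsets, scales, filters, a library covariate, centring, subsets of columns, CpG-based averages and class limits.

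Members, lists, motifs and tests were chosen with earlier results of these data known. Named were, per region, the CpGs with extreme mean or SD, the 3 regions most like each mark, the lines with extreme differences and those on opposite sides of 25%.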

Additional observations from a re-analysis of the deposited data

How the results depend on the processing

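The difference between the intergenic region and the Meg3 promoter over all lines kept its direction and passed under all 8 alternatives, at 6.66 to 8.58 points on the percent scale; 2 of these, columns with a final N (8.58 points) and leaving out the line lacking most regions (7.44 points), were chosen after seeing the data. Within B3A it missed the threshold with columns that match exactly 1 title (9.43 points, permutation adjusted p = 0.251) and with columns without a final N (7.48 points, 0.126). There 3 and 4 B3A lines remain, too few for the test to pass at any size of difference. The relation of the difference with the level of the line passed only on the log odds scale (r = -0.524). The F test between prefixes missed the threshold at the intergenic region with the library mean as a covariate (adjusted limma p = 0.398), with each library centred by its mean (0.188) and with columns that match exactly 1 title (0.0686), and at the Meg3 promoter with the covariate (0.393) and with centring (0.117). With the covariate 0 of 84 CpGs passed. Columns without a final N, chosen after seeing the data, left 14 lines of 54 with only the intergenic region at or over 25%, and 0 with the reverse. Centring and the covariate turned the sign of called contrasts: B1 minus B3A was -0.22 (log2 odds, covariate) and -0.0297 (fraction, centred) at the intergenic region and -0.21 and -0.0170 at the Meg3 promoter, and B2 minus B3A was -0.052 and -0.00312 there. Of the single contrasts at both marks, 9 others fell short of the threshold and 1 newly passed it under an alternative. The Rasgrf1 comparison could not be recomputed from the CpG table, which holds 0 CpGs there. No paired analysis was possible because no label ties a line of 1 prefix to a line of another; numbers that recur in line names are part of those names. This concerns comparisons between prefixes, while the marks were paired within lines. Without counts, low values such as those under 5% cannot be told from counting noise.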

Other observations

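B1dB37 and B1dB37N were the only 2 columns whose names differ by a final N alone. The intergenic region had 33.5% in B1dB37 and 31.2% in B1dB37N, and the Meg3 promoter 20.97% and 20.8% in the same order. Their means over the other regions were 16.4% and 14.4%. Whether both columns hold the same line was not tested.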
